A study of Mus musculus with 10 samples.

Results

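The genes followed here, 9 in all, belong to the glucocorticoid system and were measured in mouse aorta; they were chosen by symbol as the corticosteroid receptors, the enzyme that activates the hormone and genes that the hormone is known to induce. All 9 were found among the 35667 genes of the count tables, all 9 had enough reads to be tested, and each had at least 316 counts in every library. The study sequenced RNA of aorta from C57BL/6 mice aged 12 weeks in 10 libraries, with 5 labelled knockout (KO) for Ovgp1, the gene of oviductal glycoprotein 1, and 5 labelled wild type (WT). Its title links Ovgp1 with hypertension and vascular remodelling. The labels name no treatment, no promoter or Cre, no sex and no hour of dissection, and do not say whether a library is 1 animal or a pool.

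Glucocorticoids are steroid hormones of the adrenal cortex, corticosterone in mice. Inside the cell the enzyme encoded by Hsd11b1 regenerates active corticosterone from its inactive form, and the hormone binds the glucocorticoid receptor (Nr3c1) or the mineralocorticoid receptor (Nr3c2), which chaperones hold ready in the cytoplasm. The bound receptor enters the nucleus, attaches to response elements in DNA and switches on genes such as Fkbp5, whose product in turn lowers the receptor's affinity for hormone. In arteries the pathway is known for effects on vascular tone, inflammation and blood pressure.

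Several features of the libraries bear on every value below. Total counts ran from 24434745 to 26694590 in the libraries labelled KO and from 21242030 to 24396394 in those labelled WT. Ovgp1 itself went against the labels, with 480 to 549 Ovgp1 counts in the libraries labelled KO and 48 to 101 in those labelled WT, so every direction below follows the labels only; the labels do not name the deleted part of the gene, so the gene-level count may check nothing. The genotype field names Ovgp1 for KO replicate 1 only, and for the other 4 KO libraries the number after Ovgp runs on with the replicate. The 5 KO libraries were nearly identical to each other: a chi-square test of the counts of 2 libraries, over 12509 well-covered genes (mean of 50 counts or more), gave 1.77 to 3.25 per degree of freedom for KO pairs and 11 to 154 for WT pairs, where 1 is sampling noise. An SD within KO therefore covers counting error and some excess above it. P-values measure only the spread between these libraries, which may be technical. The 9 genes and every list were therefore also fitted with the KO counts summed into 1 sample. WT replicates 1 and 3 stood apart by a mitochondrial share of counts of 16.2% and 13.2%, against 6.75% to 9.59% in the other WT libraries and 7.61% to 7.88% in the libraries labelled KO.

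Promoter sequence is shown for the 3 target genes that were lower in the libraries labelled KO, Fkbp5, Errfi1 and Cdkn1a, and for Sgk1, a target gene that did not pass the test but has the letters of the receptor's palindrome in its window. Each line gives the 250 bases before an annotated start, from RefSeq in build GRCm38.p6, 5′ to 3′ along the gene's strand. Capitals mark the letters of a glucocorticoid response element (GRE): the 15-letter palindrome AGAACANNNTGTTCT, or one 6-letter arm of it, TGTTCT (which reads AGAACA on the opposite strand). Both strands were searched. The arms at both ends of the palindrome were counted as arms too. The windows are Fkbp5 at chr17:28486150-28486399 on the minus strand, Errfi1 at chr4:150854820-150855069, Cdkn1a at chr17:29093519-29093768 and Sgk1 at chr10:21993640-21993889, the last 3 on the plus strand; Errfi1, Cdkn1a and Sgk1 have further windows that are not printed.
Fkbp5: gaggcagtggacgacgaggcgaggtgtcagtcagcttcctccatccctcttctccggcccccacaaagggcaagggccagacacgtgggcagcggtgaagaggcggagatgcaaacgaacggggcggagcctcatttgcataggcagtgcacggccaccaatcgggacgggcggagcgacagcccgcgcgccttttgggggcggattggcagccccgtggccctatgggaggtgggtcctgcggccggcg
Errfi1: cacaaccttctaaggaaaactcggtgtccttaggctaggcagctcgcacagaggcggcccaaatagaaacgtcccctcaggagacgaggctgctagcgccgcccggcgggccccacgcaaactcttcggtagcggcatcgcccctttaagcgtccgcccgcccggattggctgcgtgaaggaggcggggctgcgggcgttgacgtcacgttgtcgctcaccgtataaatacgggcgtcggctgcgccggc
Cdkn1a: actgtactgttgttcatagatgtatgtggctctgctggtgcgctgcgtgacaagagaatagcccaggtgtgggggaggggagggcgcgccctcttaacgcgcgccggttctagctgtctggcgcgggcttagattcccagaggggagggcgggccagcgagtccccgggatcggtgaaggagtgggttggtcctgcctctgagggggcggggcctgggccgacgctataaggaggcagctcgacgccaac
Sgk1: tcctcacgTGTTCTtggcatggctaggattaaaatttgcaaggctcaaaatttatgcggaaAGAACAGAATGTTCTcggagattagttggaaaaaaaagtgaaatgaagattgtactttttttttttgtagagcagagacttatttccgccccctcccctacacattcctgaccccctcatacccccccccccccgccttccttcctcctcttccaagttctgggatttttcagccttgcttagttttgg
In the Sgk1 window the palindrome ran from position -189 to position -175, where -1 is the base before the start, and a further arm began at position -242. The palindrome was found in 3 of 32851 promoter windows of the same length, or 0.00913%, and an arm in 16.1% of them. Windows of 7 of the 9 genes were searched, 16 windows in all. Nr3c1 and Zbtb16 were not part of this search, so nothing can be said of their promoters. Of the 16 windows, 4 held an arm, 3 of Sgk1 and 1 of Tsc22d3, and 1, shown here, held the palindrome. A match is a description of letters only, and the absence of one in these windows says nothing of receptor binding elsewhere. The Errfi1 window also held the letters TATAAA from position -28 to position -23; that motif was found on either strand in 12.4% of windows.

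Both corticosteroid receptors were slightly higher in the libraries labelled KO, and 3 of the 6 induced genes were at less than 0.5 of their WT level. In edgeR's quasi-likelihood test of 5 against 5 libraries, 5 of the 9 genes passed an adjusted p of 0.05, against 14.3% of the 15710 genes tested. Of the 5, 2 were higher in the libraries labelled KO (Nr3c1 and Nr3c2; 6.84% of all genes) and 3 were lower (Fkbp5, Errfi1 and Cdkn1a; 7.43% of all genes). Hsd11b1, Tsc22d3, Zbtb16 and Sgk1 did not pass. The 9 genes were chosen with earlier results of these data known, so setting their count beside these shares is no independent test. Over all genes 1075 were higher and 1167 lower, a split that became 1561 and 493 when libraries were scaled by total counts alone, while the 9 genes kept 2 higher and 3 lower. The count of 5 became 3 without any 1 KO library (8.1% to 8.79% of all genes called) or without WT replicate 5 (11.1%), and 6 without WT replicate 3 (16.4%). With the KO counts summed into 1 sample, 0 of the 9 passed in the same edgeR test, against 0.0446% of genes; 1 of the 9, Cdkn1a, had an unadjusted p under 0.05 there, against 3.72% of genes. The median log2 difference, KO minus WT, was -0.14 over the 9 genes and -0.02 over all genes tested.

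**Figure D1:**
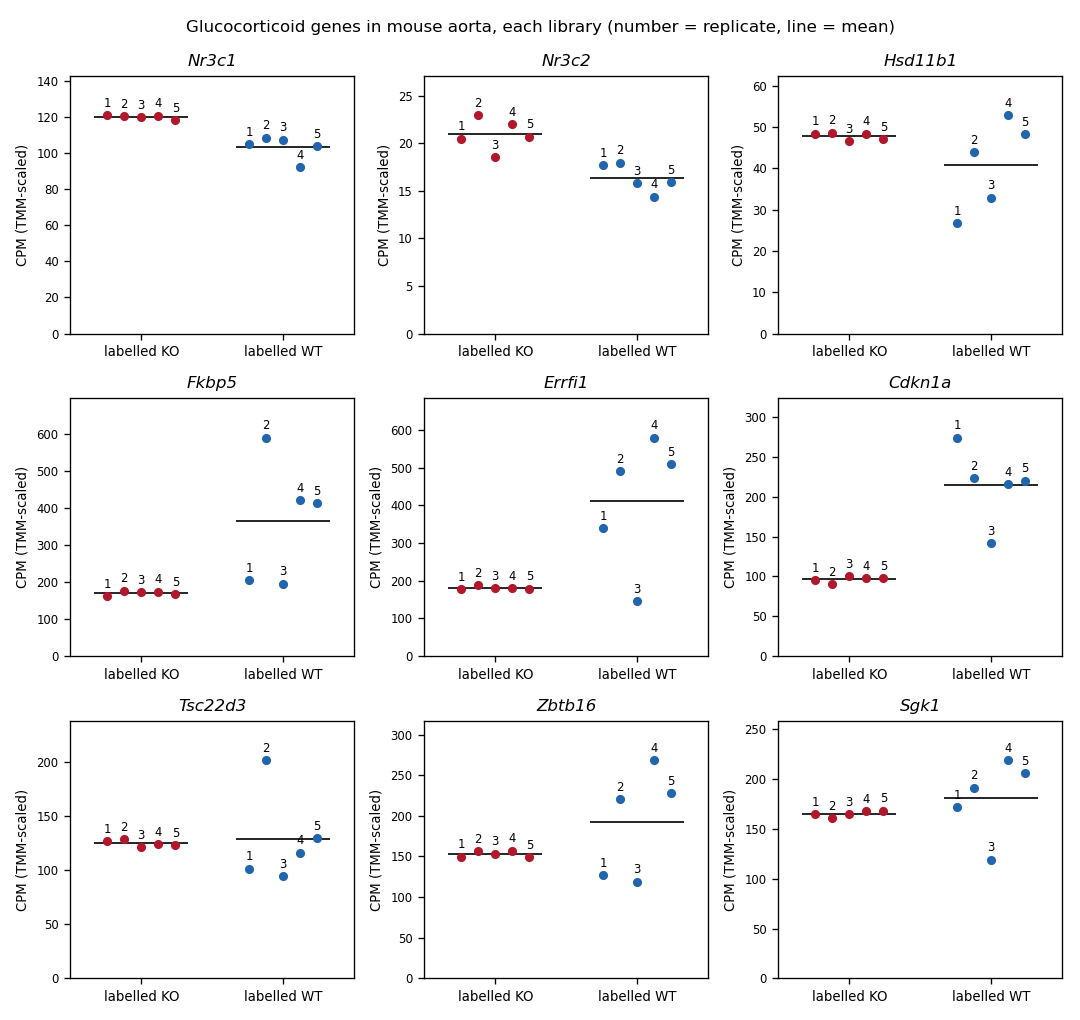
Level of each of the 9 genes in CPM (share of the library's counts, with library sizes scaled by TMM factors) in every library, 5 labelled KO (red, left) and 5 labelled WT (blue, right); numbers beside points are replicates and lines are group means. The KO points lie close together except in Nr3c2, where they differ up to 1.24-fold, against 1.25-fold in WT. WT replicates differ up to 4.0-fold in Errfi1 and 3.02-fold in Fkbp5.

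Nr3c1 (ENSMUSG00000024431; GRCm38 chromosome 18, 39410545 to 39519421, minus strand) encodes the glucocorticoid receptor. It had 120.8, 120.4, 119.8, 120.5 and 118.1 CPM (its counts as a share of the library, with library sizes scaled by TMM factors) in KO replicates 1 to 5, against 104.8, 108.4, 107.3, 92.3 and 103.8 CPM in WT replicates 1 to 5. The groups did not overlap, each KO library being above the highest WT library, and WT replicate 4 was the lowest. Its mean was 119.9 ± 1.07 CPM in the libraries labelled KO, against 103 ± 6.45 CPM in those labelled WT (± SD, n = 5 libraries per group). The fold was 1.16 (95% interval 1.08 to 1.25; edgeR adjusted p = 0.0145), and the interval with KO as 1 sample was 0.95 to 1.42 (adjusted p = 0.999). Of the 9 genes it varied least among WT libraries, with a coefficient of variation (CV, the SD as a percentage of the mean) of 6.24%; 11.7% of tested genes had a CV at or below it.

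Nr3c2 (ENSMUSG00000031618; chromosome 8, 76899442 to 77245012, plus strand), the receptor that binds aldosterone as well as corticosterone, had 20.5, 22.9, 18.5, 22.0 and 20.7 CPM in KO replicates 1 to 5, against 17.7, 18.0, 15.8, 14.4 and 15.9 CPM in WT replicates 1 to 5. The groups did not overlap, though the lowest KO library and the highest WT library were close. Its mean was 20.9 ± 1.67 CPM in the libraries labelled KO, against 16.3 ± 1.49 CPM in those labelled WT (± SD, n = 5 libraries per group). The fold was 1.28 (95% interval 1.13 to 1.45; edgeR adjusted p = 0.0139), and 0.986 to 1.66 was its interval with KO as 1 sample (adjusted p = 0.999). Nr3c2 had the fewest counts of the 9 genes, 495 to 610 in the libraries labelled KO and 316 to 420 in those labelled WT, so counting alone gives a CV of 4.24% in KO, against 7.98% observed.

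Hsd11b1 (ENSMUSG00000016194; chromosome 1, 193221634 to 193264075, minus strand) encodes the enzyme that regenerates active corticosterone. Its values were 48.4, 48.6, 46.6, 48.4 and 47.1 CPM in KO replicates 1 to 5, against 26.8, 43.9, 32.9, 52.9 and 48.2 CPM in WT replicates 1 to 5. WT replicates 1 and 3 were lowest and WT replicate 4 lay above every library labelled KO, so the groups overlapped. Its mean was 47.8 ± 0.92 CPM in the libraries labelled KO, against 40.9 ± 10.8 CPM in those labelled WT (± SD, n = 5 libraries per group). The fold of 1.17 had a 95% interval of 0.92 to 1.48 (edgeR adjusted p = 0.376), or 0.672 to 2.03 with KO as 1 sample. Without WT replicates 1 and 3 the log2 difference was -0.00070 (adjusted p = 0.993). H6pd, which supplies this enzyme with its cofactor, had 94.5 to 99.1 CPM in the libraries labelled KO, against 90.0, 169, 85.5, 222 and 192 CPM in WT replicates 1 to 5 (log2 difference -0.65, SE 0.25, edgeR adjusted p = 0.104).

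Fkbp5 (ENSMUSG00000024222; chromosome 17, 28399094 to 28517527, minus strand) encodes a co-chaperone that lowers the receptor's affinity for hormone and is itself among the best-known receptor targets. It had 163, 177, 172, 174 and 168 CPM in KO replicates 1 to 5, against 205, 591, 196, 422 and 414 CPM in WT replicates 1 to 5. Every KO library lay below every WT library, but WT replicates 1 and 3 were near the KO values and WT replicates 2, 4 and 5 far above them. Its mean was 171 ± 5.62 CPM in the libraries labelled KO, against 366 ± 167 CPM in those labelled WT (± SD, n = 5 libraries per group). The fold was 0.467 (95% interval 0.306 to 0.711; edgeR adjusted p = 0.0246), and the interval with KO as 1 sample was 0.164 to 1.33 (adjusted p = 0.999). The call was lost in the 5 against 5 fit on leaving out any KO library (adjusted p 0.0562 to 0.0606) or WT replicate 5 (0.0515). Among WT libraries the CV was 45.6%, with 90.3% of tested genes at or below it, and counting alone gives 1.10%.

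Errfi1 (ENSMUSG00000028967; chromosome 4, 150853919 to 150868892, plus strand) encodes an inhibitor of the epidermal growth factor receptor that is induced by glucocorticoids and by mitogens. Its levels were 178, 188, 179.7, 179.9 and 179 CPM in KO replicates 1 to 5, against 339, 491, 145, 579 and 508 CPM in WT replicates 1 to 5. WT replicate 3 lay below all 5 KO libraries and the other WT libraries above them. Its mean was 181 ± 4.1 CPM in the libraries labelled KO, against 412 ± 173 CPM in those labelled WT (± SD, n = 5 libraries per group). The fold was 0.438 (95% interval 0.279 to 0.689; edgeR adjusted p = 0.0239), against an interval of 0.143 to 1.35 with KO as 1 sample (adjusted p = 0.999). This call too was lost on leaving out any 1 KO library (adjusted p 0.0551 to 0.0583) and without WT replicate 2 (0.0553) or WT replicate 5 (0.0508).

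Cdkn1a (ENSMUSG00000023067; chromosome 17, 29090976 to 29100727, plus strand) encodes an inhibitor of the kinases that drive the cell cycle, induced by DNA damage and also by glucocorticoids. It had 95.6, 90.7, 100.3, 97.9 and 98.1 CPM in KO replicates 1 to 5, against 275, 224, 142, 216 and 221 CPM in WT replicates 1 to 5. Here the order of the WT libraries was another one, with WT replicate 1 highest and WT replicate 3 lowest, and all 5 lay above every KO library. Its mean was 96.5 ± 3.65 CPM in the libraries labelled KO, against 215 ± 47.4 CPM in those labelled WT (± SD, n = 5 libraries per group). The fold was 0.448 (95% interval 0.364 to 0.551; edgeR adjusted p = 0.000518). With KO as 1 sample the interval was 0.264 to 0.759, the only one of the 9 that did not include 1 in that fit, with an unadjusted p of 0.00855 and an adjusted p of 0.999 in edgeR's test.

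The remaining 3 induced genes gave no difference that passed, and in each the WT libraries lay on both sides of the KO libraries. Tsc22d3 (ENSMUSG00000031431; chromosome X, 140539528 to 140600659, minus strand), which encodes the anti-inflammatory leucine zipper protein GILZ, had 127, 129, 121, 124 and 124 CPM in KO replicates 1 to 5, against 102, 202, 94.6, 117 and 130 CPM in WT replicates 1 to 5. WT replicate 2 was far above the rest. Its mean was 125 ± 3.01 CPM in the libraries labelled KO, against 129 ± 43.2 CPM in those labelled WT (± SD, n = 5 libraries per group), and the fold was 0.97 (95% interval 0.74 to 1.27, or 0.514 to 1.83 with KO as 1 sample; edgeR adjusted p = 0.898). Without WT replicate 2 the log2 difference was 0.19 (adjusted p = 0.115).

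Zbtb16 (ENSMUSG00000066687; chromosome 9, 48654297 to 48836222, minus strand) encodes the zinc finger repressor PLZF. It had 149.9, 157, 154, 157 and 149.3 CPM in KO replicates 1 to 5, against 127, 221, 119, 269 and 228 CPM in WT replicates 1 to 5. WT replicates 1 and 3 lay below, and WT replicates 2, 4 and 5 above, all KO libraries. Its mean was 153 ± 3.71 CPM in the libraries labelled KO, against 193 ± 66.1 CPM in those labelled WT (± SD, n = 5 libraries per group). The fold was 0.796 (95% interval 0.582 to 1.09, or 0.376 to 1.69 with KO as 1 sample; edgeR adjusted p = 0.317), and without WT replicates 1 and 3 the log2 difference was -0.62 (adjusted p = 2.24e-05).

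Sgk1 (ENSMUSG00000019970; chromosome 10, 21882184 to 21999903, plus strand) encodes a kinase that both receptors induce and that stimulates sodium transport. Its values were 165, 161, 165, 168 and 168 CPM in KO replicates 1 to 5, against 172, 191, 119, 219 and 206 CPM in WT replicates 1 to 5. Only WT replicate 3 lay below the KO libraries. Its mean was 165 ± 3.09 CPM in the libraries labelled KO, against 182 ± 39.1 CPM in those labelled WT (± SD, n = 5 libraries per group). The fold was 0.91 (95% interval 0.746 to 1.11, or 0.562 to 1.47 with KO as 1 sample; edgeR adjusted p = 0.536), and without WT replicate 3 the log2 difference was -0.25 (adjusted p = 0.0250).

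Over the 9 genes, 4 had groups that did not overlap, 2 with KO above WT and 2 with KO below, against 7.38% and 7.22% of all tested genes. For each of these 4 (Nr3c1, Nr3c2, Fkbp5 and Cdkn1a) the two-sided exact permutation test of 5 against 5 libraries gave p = 0.00794, the smallest that 252 splits can give and one that every gene without overlap reaches, with an adjusted p of 0.0544 over all 15710 genes. For Errfi1 the exact permutation p was 0.0476 (adjusted p = 0.168).

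**Figure D2:**
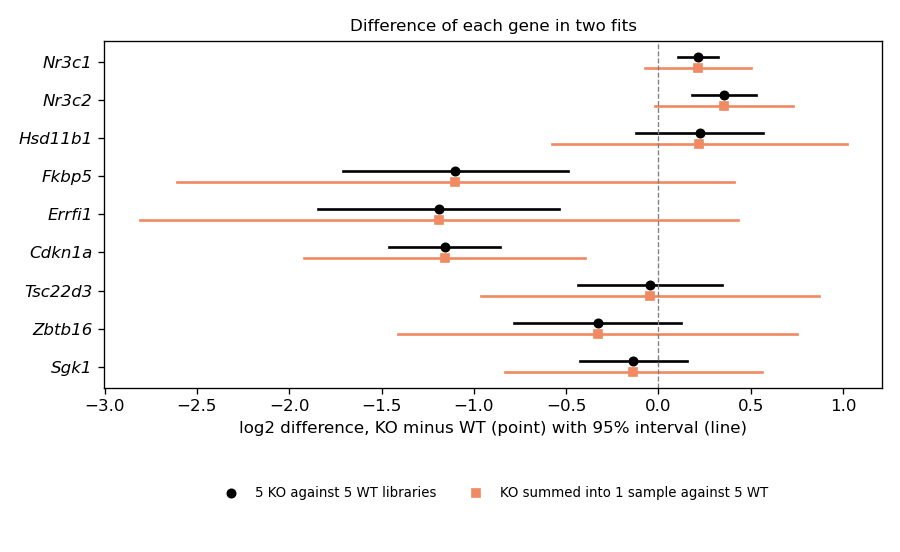
Log2 difference, KO minus WT, of each gene (points) with its 95% interval (lines) from 5 KO against 5 WT libraries (black circles) and with the KO counts summed into 1 sample against 5 WT libraries (orange squares). The points of both fits coincide and the intervals widen; in the summed fit the interval of Cdkn1a alone leaves out 0.

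The WT libraries differed among themselves in most of the target genes, and in 6 of the 9 genes WT replicates 1 and 3 were the lowest 2 of the 5. The same was seen in 23.4% of all tested genes. The 6 were Fkbp5, Errfi1, Zbtb16, Sgk1, Tsc22d3 and Hsd11b1. WT replicate 2 was highest of the WT libraries in 4 of the 9 genes (Nr3c1, Nr3c2, Fkbp5 and Tsc22d3) and WT replicate 4 in another 4 (Hsd11b1, Errfi1, Zbtb16 and Sgk1), against 23.7% and 23.4% of all tested genes. The median CV among WT libraries was 26.5% over the 9 genes and 15.6% over all tested genes, and among the libraries labelled KO it was 2.41% and 5.65%.

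Markers of endothelium, the cell layer that lines the vessel, followed a similar order among WT libraries. All 5 endothelial markers were detected in every library and 0 of 5 passed the test, against 14.3% of all genes tested. Their summed level was 253 to 262 CPM in the libraries labelled KO, against 200.2, 499, 141, 592 and 489 CPM in WT replicates 1 to 5. Pecam1, an adhesion molecule of endothelial cells, had 155 to 160.1 CPM in the libraries labelled KO, against 143, 405, 107, 366 and 324 CPM in WT replicates 1 to 5. Vwf, a clotting protein stored in these cells, had 47.8 to 52.7 CPM in the libraries labelled KO, against 21.2, 56.5, 15.5, 107 and 79.3 CPM in WT replicates 1 to 5. In a bulk sample fewer cells of a type and less RNA per cell cannot be told apart. The part of the endothelial level in the values of Fkbp5, Errfi1, Zbtb16 or Sgk1 was not tested.

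Markers of brown adipocytes, which occur in the fat around the aorta, ranked the WT libraries by their sum as Errfi1, Zbtb16 and Sgk1 did. From highest to lowest these were WT replicates 4, 5, 2, 1 and 3. All 6 markers were detected and 0 of 6 passed, against 14.3% of all genes tested. Their summed level was 193 to 209 CPM in the libraries labelled KO, against 176, 199, 52.8, 810.3 and 587 CPM in WT replicates 1 to 5. The most abundant were Ucp1, which uncouples mitochondria to make heat, at 89.7 to 98.8 CPM in the libraries labelled KO, against 8.73 to 423 CPM in those labelled WT, and Cidea, a lipid droplet protein, at 52.3 to 58.4 CPM in the libraries labelled KO, against 20.1 to 181 CPM in those labelled WT. Unlike the sum, Ucp1 and Cidea were higher in WT replicate 1 (67.1 and 51.5 CPM) than in WT replicate 2 (61.7 and 44.0 CPM). Dio2, another of the 6 markers, had 32.0 CPM in WT replicate 1 and 62.8 CPM in WT replicate 2. Cox8b, Elovl3 and Ppara were also higher in WT replicate 2 than in WT replicate 1. White adipocyte markers, led by Fabp4 and Cfd, had sums of 692 to 719 CPM in the libraries labelled KO. Past the threshold were 0 of 6, against 14.3% of all genes tested. In WT replicates 1 to 5 their sums were 529, 687, 472, 1719 and 1314 CPM, the same order of WT libraries. Cfd by itself had another order, with 94.8, 47.4, 128, 183 and 140 CPM in WT replicates 1 to 5. WT replicates 1 and 3 were the lowest 2 in 2 of the 6 white adipocyte markers, against 23.4% of all tested genes. The brown adipocyte sum lay above the range of the libraries labelled KO in WT replicates 4 and 5, within it in WT replicate 2 and below it in WT replicates 1 and 3. The part of fat in the values of the 9 genes was not tested.

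Markers of the other cells of the wall were read the same way, by their summed level and by their calls in the 5 against 5 fit, where 6.84% of all genes were higher and 7.43% lower. With KO as 1 sample, 1 marker of all these lists passed in edgeR's test, Ighm (adjusted p = 0.0413). The 6 smooth muscle markers, led by Acta2 and Myh11, came to 35070 to 35736 CPM in the libraries labelled KO, against 25210 to 38742 CPM in those labelled WT, with 0 of 6 higher and 1 lower. Of 6 adventitial fibroblast markers, led by Dcn and Lum, 4 were higher and 0 lower, at 2314 to 2370 CPM in the libraries labelled KO, against 1512 to 1977 CPM in those labelled WT. Of 5 macrophage markers, led by Lyz2 and Csf1r, 2 were higher and 0 lower, at 194 to 205 CPM in the libraries labelled KO, against 133 to 211 CPM in those labelled WT.

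Among the lists of cells and states, the summed blood cell and nerve markers did not overlap between the groups. Neither did the sums of adventitial fibroblast markers, immediate early genes and clock genes. Of all tested genes taken singly, 14.6% did not overlap. Of all genes in the 5 against 5 fit, 6.84% were higher and 7.43% lower. Of 5 tested lymphocyte markers, led by Ighm and Igkc, 3 were higher and 0 lower, at 274 to 279 CPM in the libraries labelled KO, against 8.15 to 25.5 CPM in those labelled WT. Of 6 nerve and Schwann cell markers, led by Mbp, 4 were higher and 0 lower, at 39.6 to 43.5 CPM in the libraries labelled KO, against 15.01 to 22.5 CPM in those labelled WT. All 5 red cell markers, led by Hbb-bs and Hba-a1, were lower, at 19.2 to 21.3 CPM in the libraries labelled KO, against 65.7 to 327 CPM in those labelled WT. Their part in the differences of Nr3c1, Nr3c2, Fkbp5, Errfi1 and Cdkn1a was not tested. None of the markers of these lists was at 0 in any library.

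Immediate early genes, which respond within minutes to handling, and genes of the daily clock were set beside these values as well. Their calls are from the 5 against 5 fit, where 6.84% of all genes were higher and 7.43% lower. The 11 immediate early genes, of which Fosl2 and Egr1 were the most abundant, summed to 427 to 429.7 CPM in the libraries labelled KO, against 468, 448, 479.9, 671 and 599 CPM in WT replicates 1 to 5, with 0 higher and 2 lower. The median log2 difference of the 11 was 0.11, although their sum was lower in the libraries labelled KO. Of 12 clock genes 5 were higher and 4 lower, at 912 to 917 CPM in the libraries labelled KO, against 612 to 879 CPM in those labelled WT; the repressor genes Nr1d1 and Nr1d2 were the most abundant. Markers of the adrenal cortex, the source of the hormone, were low: of 5 listed, only Star, a cholesterol transporter, was tested, at 5.82 to 7.52 CPM in the libraries labelled KO, against 5.85 to 7.70 CPM in those labelled WT, and Cyp11a1, the first enzyme of steroid synthesis, had at most 0.296 CPM in a library labelled KO and at most 0.371 CPM in one labelled WT. The part of dissection time or handling in these values was not tested.

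**Figure D3:**
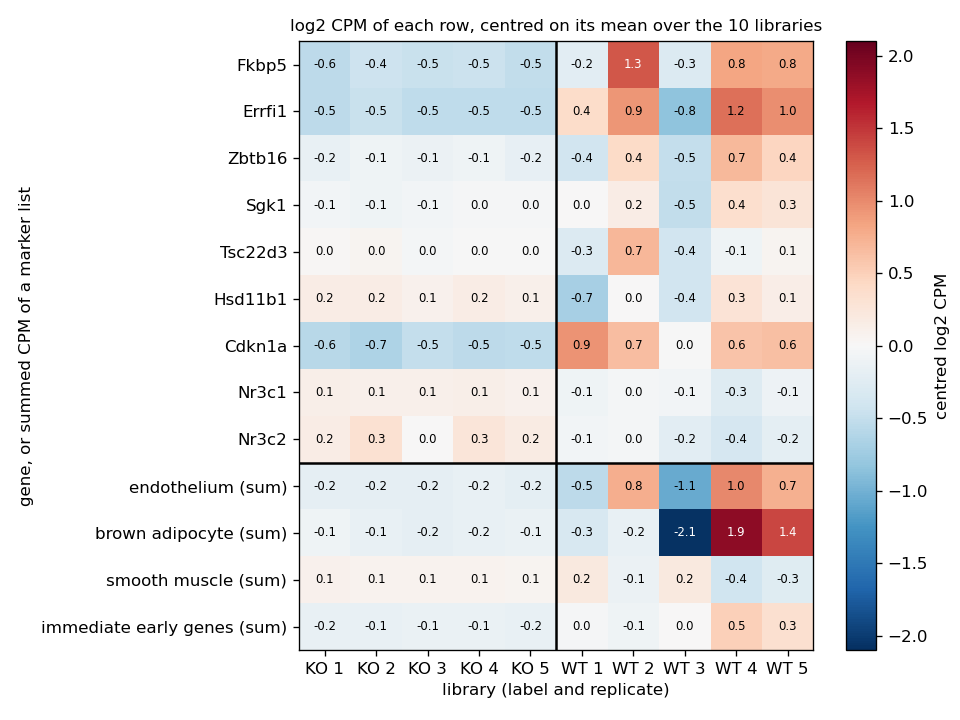
Centred log2 CPM (colour and number) of the 9 genes and of the summed CPM of 4 marker lists, in 5 libraries labelled KO (left of the line) and 5 labelled WT (right). Fkbp5, Errfi1, Zbtb16 and the endothelial sum are high in WT replicates 2, 4 and 5 and low in WT replicate 3. The brown adipocyte sum is at -0.33, -0.16, -2.07, 1.87 and 1.41 in WT replicates 1 to 5.

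For the genes whose log2 CPM had an SD above 0.5 over WT libraries, the most similar profiles were looked up among protein-coding genes whose mean log2 CPM was 3 or more, by the root mean square (RMS) difference of centred log2 CPM over the 10 libraries, of which the 5 labelled KO are nearly the same point. Fkbp5 was closest to Tnfrsf21, a death receptor, at an RMS difference of 0.17, then to Layn, a hyaluronan receptor (0.18), and Ahsg, the plasma protein fetuin-A (0.18). Tnfrsf21 had 40.0 to 42.6 CPM in the libraries labelled KO, against 39.8, 126, 46.9, 76.5 and 78.3 CPM in WT replicates 1 to 5. Errfi1 was closest to Dio2, which activates thyroid hormone and is 1 of the 6 brown adipocyte markers (0.22), then to Slc10a6, a transporter of sulphated steroids (0.24), and Adamts9, a matrix protease (0.26).

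Zbtb16 had closer neighbours: Rtn4, the membrane protein also called Nogo (0.052), Fxyd5, a small membrane protein (0.052), and Bnip3, a mitochondrial protein of cell death and mitophagy (0.076). Rtn4 had 261 to 270.2 CPM in the libraries labelled KO, against 233, 377, 222, 446 and 411 CPM in WT replicates 1 to 5. These likenesses describe the 10 libraries and say nothing of shared control.

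Other genes known to be induced by glucocorticoids gave calls in 1 direction. Of 36 such genes 32 were tested; 0 were higher and 6 lower, against 6.84% and 7.43% of all genes, and 0 passed with KO as 1 sample in the same edgeR test, where 0.0446% of all genes did. The count of 6 became 4 without any 1 KO library (3.95% to 4.33% of all genes lower) or without WT replicate 5 (5.84%). It became 14 without WT replicate 3 (8.56% of all genes lower) and 19 without WT replicates 1 and 3 (13.6%). The median log2 difference of the 32 was -0.39, against -0.02 over all tested genes. Like the 9 genes, this list was chosen with earlier results of these data known, so these comparisons are no independent test. WT replicates 1 and 3 were the lowest 2 WT libraries in 18 of the 32 genes, or 56.2%, against 23.4% of all tested genes. This order was not particular to induced genes. It was seen in 7 of 9 tested genes known to be repressed by glucocorticoids (77.8%), 4 of 5 endothelial, 4 of 6 brown adipocyte and 4 of 6 adventitial fibroblast markers. It was seen in 2 of 6 white adipocyte markers, 1 of 11 receptor chaperones and immunophilins and 0 of 6 smooth muscle markers. Mt2, Il1r2, Tat and Trim63 were too low to be tested. Mt2 had 0 CPM in every library labelled KO and at most 0.124 CPM in one labelled WT. Mt1 had 338 to 1892 CPM in the libraries labelled WT. Whether the low count of Mt2 reflects the tissue or the counting was not tested.

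The 4 of smallest p were Cebpb, Foxo1, Mt1 and Foxo3, with Mertk and Map3k6, named after their values were seen, making up the 6. Cebpb, a transcription factor of inflammation and fat, had 1.52 to 2.55 CPM in the libraries labelled KO, against 3.49 to 6.13 CPM in those labelled WT (log2 difference -1.33, SE 0.18, edgeR adjusted p = 0.00109; fold interval 0.225 to 0.705 and adjusted p = 0.995 with KO as 1 sample). Mt1, a metal-binding protein induced by glucocorticoids and by metals, had 232 to 236 CPM in the libraries labelled KO, against 362, 1892, 338, 1224 and 1130.3 CPM in WT replicates 1 to 5 (log2 difference -2.08, SE 0.44, adjusted p = 0.0123). The forkhead factors Foxo1 and Foxo3, which drive genes of fasting and atrophy, had log2 differences of -0.38 (SE 0.07, adjusted p = 0.00505) and -0.55 (SE 0.13, adjusted p = 0.0165). Mertk, a receptor for the uptake of dead cells, and the kinase Map3k6 had -0.24 (SE 0.07, adjusted p = 0.0297) and -0.79 (SE 0.23, adjusted p = 0.0481).

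Some well-known early targets, named after their values were seen, did not pass. Per1, a clock gene with a well-known GRE, had 92.9 to 96.2 CPM in the libraries labelled KO, against 71.1, 43.9, 84.5, 102 and 86.6 CPM in WT replicates 1 to 5 (log2 difference 0.28, edgeR adjusted p = 0.323), and was lowest in WT replicate 2, where Fkbp5 was highest. Klf9, a transcription factor, had 134 to 144 CPM in the libraries labelled KO, against 89.9, 138, 91.6, 176 and 152 CPM in WT replicates 1 to 5 (log2 difference 0.09, edgeR adjusted p = 0.771). Dusp1, a phosphatase that ends MAP kinase signals, had 233 to 247 CPM in the libraries labelled KO, against 218 to 284 CPM in those labelled WT (log2 difference -0.02, adjusted p = 0.873). Ddit4, an inhibitor of mTOR signalling, had 44.8 to 49.1 CPM in the libraries labelled KO, against 27.8 to 85.7 CPM in those labelled WT (log2 difference -0.25, adjusted p = 0.548).

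Chaperones and coregulators of the receptors gave few calls, and 0 with KO as 1 sample in edgeR's test, against 7.43% of all genes lower in the 5 against 5 fit and 0.0446% called in the other. Of 11 chaperones and immunophilins, 0 were higher and 1 lower: Bag1, a co-chaperone that also binds the receptor, at 109 to 117 CPM in the libraries labelled KO, against 135 to 149 CPM in those labelled WT (log2 difference -0.33, SE 0.05, edgeR adjusted p = 0.000969; adjusted p = 0.999 with KO as 1 sample). The next 3 by p were Cdc37, Dnajb1 and Ptges3, with log2 differences of -0.11, 0.11 and -0.10. Of 12 coregulators, 0 were higher and 2 lower, among them the acetyltransferase Crebbp, with a log2 difference of -0.30 (SE 0.05). Ncoa3 and Smarca4, which did not pass, had -0.09 and -0.08. The list medians were -0.01 and -0.08.

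In steroid metabolism and transport 6 of 12 genes were tested, with 0 higher and 1 lower, against 6.84% and 7.43% of all genes. This was Por, the electron donor of cytochrome P450 enzymes, at 139 to 141 CPM in the libraries labelled KO, against 189.97 to 225 CPM in those labelled WT (log2 difference -0.52, SE 0.05, edgeR adjusted p = 0.000162; fold interval 0.555 to 0.878 and adjusted p = 0.999 with KO as 1 sample). Abcb1a, an efflux pump that carries steroids, and Srd5a1, a steroid reductase, had log2 differences of 0.44 (adjusted p = 0.0810) and 0.61 (adjusted p = 0.177). Hsd11b2, which inactivates corticosterone, was too low to be tested, at 0 to 0.188 CPM in the libraries labelled KO, against 0 to 0.0906 CPM in those labelled WT.

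Genes known to be repressed by glucocorticoids were too low to be tested in 7 of 16 cases, among them Il6 and Tnf. Of the 9 tested, 1 was higher in the libraries labelled KO and 0 lower, against 6.84% and 7.43% of all genes, with a median log2 difference of 0.00. The higher one was Mmp9, a matrix protease, at 4.27 to 5.13 CPM in the libraries labelled KO, against 2.18 to 3.58 CPM in those labelled WT (log2 difference 0.58, SE 0.15, edgeR adjusted p = 0.0273; fold interval 0.88 to 2.54 and adjusted p = 0.999 with KO as 1 sample). Vcam1, an adhesion molecule for leukocytes, had 96.5 to 102 CPM in the libraries labelled KO, against 47.7 to 90.5 CPM in those labelled WT (log2 difference 0.41, adjusted p = 0.0933). Pla2g4a, a phospholipase, and Ptgs2, the inducible cyclooxygenase, had log2 differences of -0.27 (adjusted p = 0.219) and 0.09 (adjusted p = 0.697).

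Of 10 genes of ion transport linked to the mineralocorticoid receptor, 6 were tested. In edgeR's 5 against 5 test 0 of the 6 passed, against 14.3% of all genes tested. Tsc22d1, the sodium channel subunit Scnn1a and the ubiquitin ligase Nedd4l had log2 differences of -0.27, 0.39 and -0.04 (adjusted p 0.121 to 0.776).

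**Figure D4:**
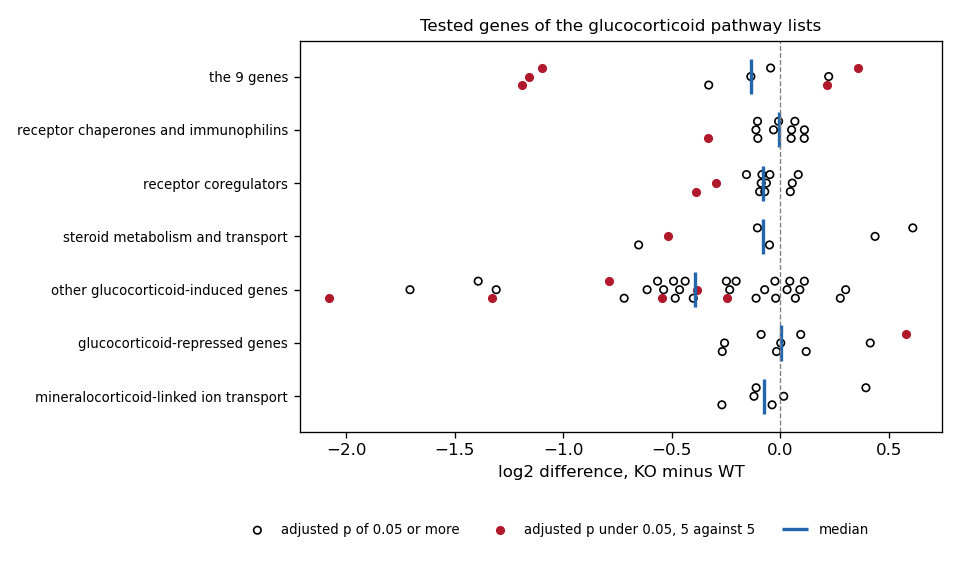
Log2 difference, KO minus WT, of the 9 genes and of each tested gene of 6 pathway lists (points; filled where the adjusted p in the 5 against 5 test was under 0.05, open where it was not), with list medians as blue bars. The median of the other glucocorticoid-induced genes is at -0.39 and those of the remaining pathway lists lie between -0.08 and 0.00.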

How the data were processed

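Gene expression was measured by RNA sequencing of mouse aorta in 10 libraries, grouped as KO or WT by their titles. The authors deposited whole-number read counts per gene for each library; per the labels' protocols, RNA came from frozen tissue by Trizol and libraries from the Illumina TruSeq kit. Per the submitters' processing notes, Bowtie 0.12.2 and builds mm8 and mm9 were used, with no roles; the sources used here do not give the counter, the annotation or a strand setting. Gene coordinates are from GENCODE M21 (GRCm38), matched by Ensembl identifier, and overlapping genes could share reads: those counted over Hsd11b1, Fkbp5 and Nr3c2 had at most 29 counts.

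Counts were tested in R 4.3.3 with edgeR 4.0.16 by glmQLFit and glmQLFTest (robust, TMM, filterByExpr with minimum count 10 and total 15), KO against WT, with Benjamini-Hochberg adjustment over all genes tested and a threshold of 0.05. Each SE was taken from the log2 difference and its F value. The same fit was run with the KO counts summed into 1 sample, so that WT libraries alone set the spread. On simulated counts both fits recovered the fold changes put in, but where the KO libraries were drawn from 1 source the 5 against 5 fit also called many unchanged genes. Alternatives were other size factors, no filter, no mitochondrial genes, DESeq2 1.42.0, limma-voom 3.58.1, a replicate block and leaving out libraries. The 9 genes and the lists were chosen with earlier results of these data known. Named are the 9 genes, the 4 of smallest p per pathway list, the 2 most abundant markers per other list, and the 3 nearest profiles of members with a WT log2 SD above 0.5; Mertk, Map3k6, Per1, Klf9, Dusp1, Ddit4 and Hsd11b2 were named outside this rule, after their values were seen. A few genes covered by the rule are left out here. Intervals reflect only these libraries.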

Additional observations from a re-analysis of the deposited data

Results flagged for a closer look

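Of 18 groups of 5 libraries (9 genes, KO and WT), 2 held a library far from the other 4; chance marks about 1 in 20 such groups. Errfi1 in KO replicate 2 had 188 CPM, against 178 to 179.9 CPM in the other KO libraries. Nr3c1 in WT replicate 4 had 92.3 CPM, against 103.8 to 108.4 CPM in the other WT libraries.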

How the results depend on the processing

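The count of 5 passing genes among the 9 stayed at 5 with other size factors, with total counts only, without mitochondrial genes, with DESeq2 and with limma-voom (13.1% to 18.9% of all genes called). It was 3 without the low-count filter (5.52%), 2 with the replicate block (8.4%) and 7 without WT replicates 1 and 3 (27.2%). On leaving out 1 library it was 3 to 6 (8.1% to 16.8%). Over all genes 2242 passed, against 1319 with the replicate block, 7 with KO summed, 4386 without WT replicates 1 and 3 and 1287 to 2678 without 1 library; with KO summed, leaving out 1 WT library gave 1 to 5 genes and 0 of the 9. Of the other induced genes 6 passed, all lower, where 7.43% of all genes were lower. This count became 2 without the filter (1.9% of all genes lower), 11 with DESeq2 (9.53%) and 3 with the replicate block (3.98%). It was 19 without WT replicates 1 and 3 (13.6%), 14 without WT replicate 3 (8.56%) and 4 to 14 on leaving out 1 library (3.95% to 8.56%). This list's alternatives were added after seeing the data. Deviations of same-numbered libraries from their group means had correlations of -0.04 to 0.042. The KO libraries differed far less than the WT libraries did, and partly by counting error, so these correlations cannot show whether the numbers pair libraries. In edgeR's test with the replicate block Nr3c1, Fkbp5 and Errfi1 had adjusted p of 0.05002, 0.0575 and 0.0763. Without the filter Fkbp5 and Errfi1 had adjusted p of 0.117 and 0.109. The sign of the log2 difference of Tsc22d3 turned with total counts only (0.020), without the filter (0.0026), with limma-voom (0.012), with the replicate block (0.012) and without WT replicate 2 (0.19; -0.14 to 0.19 on leaving out 1 library), and that of Hsd11b1 without WT replicates 1 and 3 (-0.00070). The cause of these changes was not tested. Depth limits Nr3c2 most, with a counting CV of 4.24% in KO and 5.24% in WT.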
